A study of Mus musculus with 24 samples.

Results

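The liver's response to losing FoxO1 was compared between acute and constitutive deletion in refed mice, using 12 of the 24 libraries of the series. These are the 4 refed groups of 3 libraries each, and the quantity of interest is the acute effect of deletion minus the constitutive one. All groups came from livers of C57BL/6 mice that carried the floxed allele FoxO1lox/lox, were fasted for 4 h and then refed for 1 h. In the acute model, FoxO1lox/lox mice received an adeno-associated virus by tail vein, AAV8.TBG.eGFP for the controls (called GFP here) or AAV8.TBG.Cre for the deletion (called Cre), and the labels give day 21 after injection. In the constitutive model, the floxed mice were crossed to Albumin-cre, which gives the FoxO1-/- livers (called KO), and FoxO1lox/lox mice without Cre served as controls (called WT). The labels do not say whether the constitutive mice received a virus, so virus, cohort and timing of deletion cannot be told apart when the models are compared. Both Cre constructs act in hepatocytes, because the TBG and albumin promoters are hepatocyte promoters. Which other liver cells keep the floxed gene in each model is not stated in the labels. Whether the 3 libraries of a group are 3 animals is not stated in the labels, so the p-values reflect variation among libraries that could be technical only.

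FoxO1 is a forkhead transcription factor that switches on genes of glucose output and insulin sensitivity in the fasted liver. After a meal, insulin activates the kinase Akt, which phosphorylates FoxO1 and moves it out of the nucleus, so in the refed liver FoxO1 is normally being turned off.

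Expression values were FPKM, which divide a gene's fragments by its length and by the library's total. Differences were taken on log2(FPKM + 1), which understates the changes of low genes, and folds are ratios of mean FPKM. The spacing of low values gave the depth of a library as a multiple of the average over 24 libraries: 0.62 to 0.65 in 4 of the 6 acute refed libraries, 1.37 in GFP refed 3, 1.31 in Cre refed 1, and 1.12 to 1.27 in the constitutive refed libraries. Pearson's r between libraries of a group was 0.961 to 0.984 across genes. Xist was at most 0.0372 FPKM and the Y-linked Ddx3y was at least 2.99 FPKM in the refed libraries. The Y-linked Ddx3y, Eif2s3y, Kdm5d and Uty were each lowest in KO refed 2. Their differences between models were 0.60, 0.48, 0.24 and 0.28 on the log2 scale (limma, unadjusted p = 0.032, 0.046, 0.16 and 0.14). Summed hepatocyte markers (Alb, Ttr, Apoa1 and others) lay between 46052 and 68148 FPKM in every refed library.

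Foxo1 (chromosome 3, 52268337 to 52350109, mm10) was low in both deleted groups. It was at 5.74, 6.81 and 5.91 FPKM in GFP livers and at 0.324, 0.571 and 0.350 FPKM in Cre livers. In the constitutive model it was at 4.92, 5.30 and 6.79 FPKM in WT livers and at 0.404, 0.398 and 0.443 FPKM in KO livers. The groups did not overlap in either model, which held for 12.7% of all genes acutely and 15.2% constitutively, and Foxo1 fell 14.8-fold in the acute and 13.7-fold in the constitutive model. The difference between the models was -0.11 ± 0.16 (SE) on the log2 scale with a 95% interval from -0.45 to 0.22 (limma, adjusted p = 0.830), which included 0.

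No gene of 10682 tested passed the adjusted threshold of 0.05 for a difference between the models in refed livers with limma, which is a share of 0%. The smallest adjusted p was 0.0684, for Vnn1. At an unadjusted p under 0.05 there were 1165 genes (10.9% of those tested), 602 of them with the higher effect in the acute model (5.64%) and 563 with the lower one (5.27%). The unadjusted 95% interval of a gene's difference reached a median of 0.35 log2 to each side. A call after adjustment needed a larger difference than this in the typical gene, and Vnn1 at -1.11 ± 0.18 was not called. The median difference over all genes was 0.01. Leaving out 1 library gave calls in 3 cases, 14 without GFP refed 1, 1 without Cre refed 2 (Vnn1) and 2 without WT refed 1 (Vnn1 and Map1lc3a).

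The single effects were each called for few genes. Acute deletion changed 37 genes in refed livers, or 0.346% of those tested, with 9 higher (0.0843%) and 28 lower (0.262%) in Cre than in GFP livers. Constitutive deletion changed 4 genes (0.0374%): Foxo1, Igfbp2 and B930025P03Rik fell (0.0281%) and Clstn3 rose (0.00936%). Foxo1 and Igfbp2 were called in both models. The acute count was 120 without GFP refed 1, 24 without Cre refed 2 and 12 without Cre refed 3. The constitutive count was 7 without GFP refed 2 and 1 without WT refed 2, WT refed 3 or KO refed 1. Of the 37 acute calls, 30 had the same sign in the constitutive model, and 22 reached an unadjusted p under 0.05 for the difference between models, which shares its libraries with the calls. Of the 1165 genes, 1086 (93.2%) had opposite signs in the models, against 51.5% of all genes, and selection on the difference favours opposite signs. Across all genes the acute and constitutive effects had a Pearson's r of -0.05 and a Spearman's rho of -0.03, given as a description because genes are not independent replicates.

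**Figure D1:**
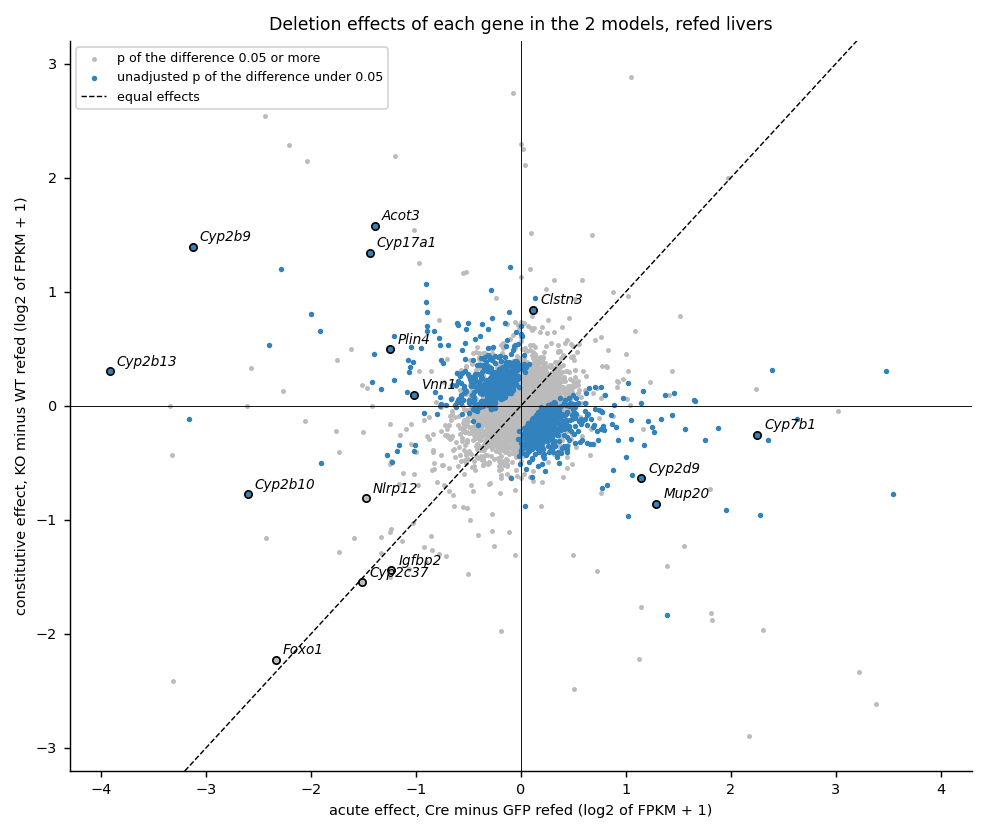
Each point is 1 gene, with its acute effect (Cre minus GFP) on the horizontal and its constitutive effect (KO minus WT) on the vertical axis, both on log2(FPKM + 1) in refed livers. Blue points had an unadjusted p under 0.05 for the difference between the effects, the dashed line marks equal effects, and 11 genes lie outside the axes. Foxo1, Igfbp2 and Cyp2c37 lie near the line of equal effects in the lower left, while Vnn1, Plin4 and Cyp17a1 lie to the left with constitutive effects at or above 0.

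Igfbp2, a secreted binding protein of insulin-like growth factors, was lower in both deleted groups. Its level was 349, 201 and 390.3 FPKM in GFP livers against 98.9, 156 and 133 FPKM in Cre livers. It was 346, 336 and 282 FPKM in WT livers against 100.5, 152 and 105 FPKM in KO livers. No deleted library reached the lowest control library, and the gene fell 2.42-fold and 2.70-fold. The difference between models was 0.21 ± 0.34 with an interval from -0.50 to 0.91 (limma, adjusted p = 0.851).

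Cyp2c37, a P450 of the Cyp2c family whose near-identical copies can share reads, had similar effects in both models. Its level was 72.7, 198 and 185 FPKM in GFP and 44.9, 53.8 and 45.5 FPKM in Cre livers. In the constitutive model it was 119, 89.6 and 117 FPKM in WT and 27.7, 40.6 and 42.0 FPKM in KO livers. The groups did not overlap in either model. The gene fell by 1.52 on the log2 scale in the acute model (adjusted p = 0.023), was at -1.55 in the constitutive model (adjusted p = 0.057), and the difference was 0.03 ± 0.42 with an interval from -0.84 to 0.90. Its neighbour in the family, Cyp2c54, was at -1.03 in both models with a difference of 0.00.

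The genes closest to a difference with a lower acute effect began with Vnn1, a pantetheinase of the cell surface and a target of the fatty acid receptor PPAR alpha. Vnn1 (chromosome 10, 23894688 to 23905343) was at 35.9, 34.9 and 33.8 FPKM in GFP livers and at 14.7, 19.3 and 16.5 FPKM in Cre livers. It was at 29.9, 24.4 and 26.0 FPKM in WT livers and at 30.8, 27.1 and 27.9 FPKM in KO livers. All 3 Cre libraries lay below the other 9, while WT and KO overlapped. The acute change was a 2.07-fold fall (adjusted p = 0.00092), the constitutive effect was 0.10 on the log2 scale (adjusted p = 0.83), and the difference between models was -1.11 ± 0.18 with an interval from -1.49 to -0.73 (limma, adjusted p = 0.0684). In fasted livers the difference for Vnn1 was 0.08 ± 0.18, and the change of the difference with refeeding was -1.19 (limma, unadjusted p = 0.00017, adjusted p = 0.368). Cre and KO livers differed directly for Vnn1 by -0.74 (adjusted p = 0.0019), while GFP and WT livers differed by 0.37 (adjusted p = 0.12).

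Plin4, which coats lipid droplets, was at 6.86, 3.14 and 2.76 FPKM in GFP livers and at 1.12, 1.34 and 0.848 FPKM in Cre livers. It was at 2.90, 3.56 and 2.26 FPKM in WT livers and at 3.88, 4.18 and 5.42 FPKM in KO livers. The groups did not overlap in either model, with Cre below GFP and KO above WT. Plin4 fell 3.86-fold in the acute model (adjusted p = 0.028), was 1.54-fold higher in KO than in WT without passing the test (adjusted p = 0.54), and its difference between models was -1.74 ± 0.35 (adjusted p = 0.191).

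Fetub, a liver-secreted protein of the fetuin family, was at 341, 539 and 481 FPKM in GFP livers and at 271, 250.4 and 267 FPKM in Cre livers. WT livers held 348, 361 and 345 FPKM and KO livers 369, 375 and 320.2 FPKM. Cre lay below GFP in all libraries, and WT and KO overlapped. Fetub fell 1.73-fold in the acute model (adjusted p = 0.0066), its constitutive effect was 0.01, and the difference was -0.77 ± 0.18 (adjusted p = 0.259). Without the library GFP refed 1, the lowest of the GFP livers, the difference was -0.96 with an adjusted p of 0.00646.

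Rad51l1, a DNA repair gene, was at 1.94, 4.90 and 1.52 FPKM in GFP livers and at 0.199, 0.537 and 0.239 FPKM in Cre livers. WT livers held 0.674, 0.353 and 0.732 FPKM and KO livers 1.25, 0.595 and 0.674 FPKM, so GFP stood above the 3 other groups. Rcan2, a regulator of calcineurin, had the same order, with 1.14 to 2.22 FPKM in GFP livers and 0.312 to 0.726 FPKM in the 9 others. Both fell in the acute model (adjusted p = 0.012 for Rad51l1 and 0.0035 for Rcan2), and both were also higher in GFP than in WT livers (adjusted p = 0.032 and 0.024). Their differences between models were -1.63 ± 0.35 and -0.86 ± 0.19, each with an adjusted p of 0.258.

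The other genes with the smallest p and a lower acute effect were Map1lc3a, Serf2, Cisd3, Tmem53 and Klf2. Map1lc3a, which encodes an autophagosome protein of the LC3 family, was at 24.2 to 25.8 FPKM in GFP, 18.5 to 20.1 in Cre, 27.8 to 34.0 in WT and 32.5 to 36.3 in KO livers. Cre lay below GFP, while WT and KO overlapped, and the difference was -0.52 ± 0.11 (adjusted p = 0.191). Serf2 was at 30.1 to 32.4 FPKM in Cre livers against 35.6 to 37.8 in GFP livers, and at 36.1 to 41.3 in KO livers against 30.3 to 33.7 in WT livers. Its difference was -0.51 ± 0.10 (adjusted p = 0.191). Klf2, a transcription factor known from endothelium, was at 1.96 to 2.57 FPKM in Cre livers against 3.38 to 3.86 in GFP livers, and at 2.92 to 3.53 in KO livers against 2.46 to 2.56 in WT livers. The differences of Klf2, Tmem53 and Cisd3 were -0.75, -0.72 and -0.72, with adjusted p of 0.259 to 0.293. The 10 endothelial markers were all below 0 for the same difference, with a median of -0.16 (-0.25 to -0.03 with 1 library left out) and none at an unadjusted p under 0.05, and the part of these cells in the value for Klf2 was not tested.

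**Figure D2:**
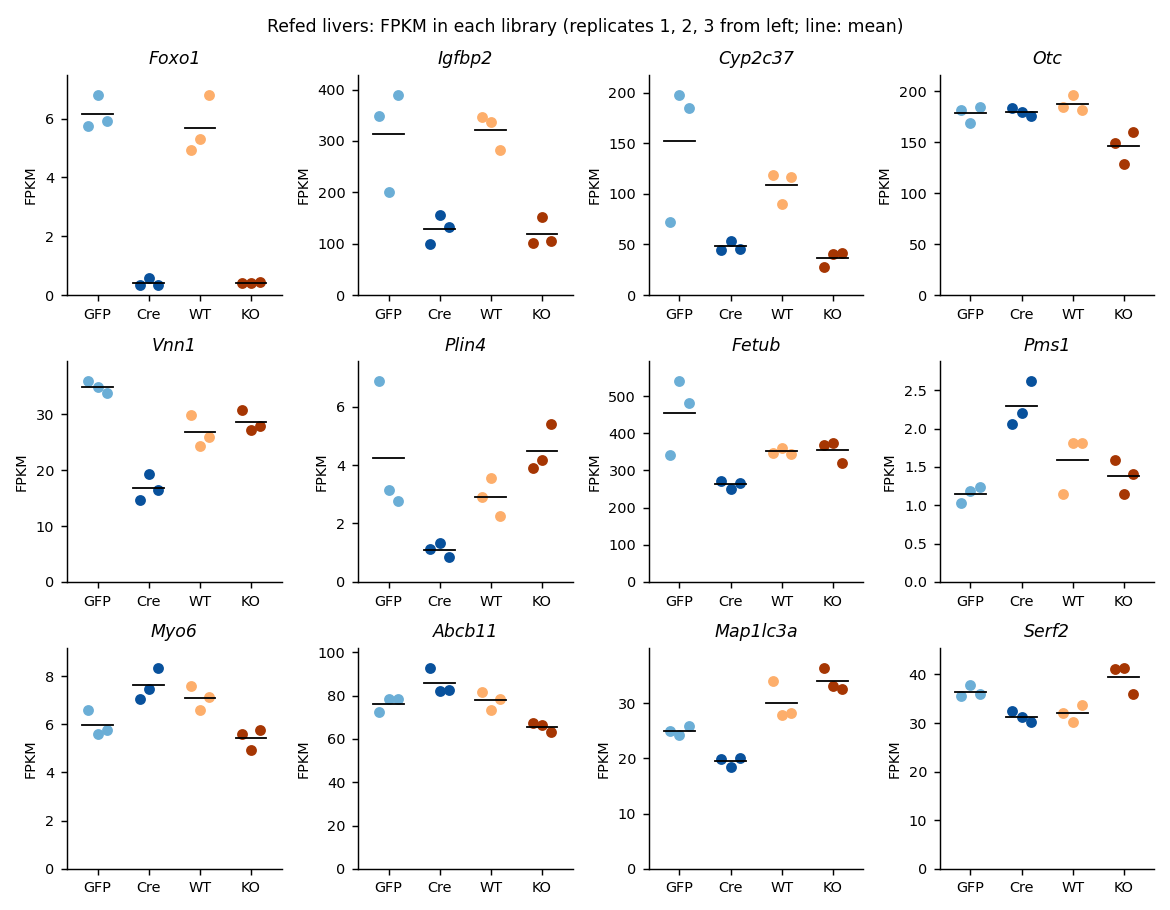
Points are the FPKM of the 3 refed libraries of each group (GFP, Cre, WT, KO) for 12 genes, lines are group means, and each vertical axis starts at 0. Foxo1, Igfbp2 and Cyp2c37 are low in both deleted groups, Vnn1 and Fetub are low in Cre livers alone, and Otc is low in KO livers while GFP and Cre overlap.

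Among the genes closest to a difference with a higher acute effect was Pms1, a mismatch repair gene. It was at 1.03, 1.19 and 1.24 FPKM in GFP livers and at 2.06, 2.20 and 2.62 FPKM in Cre livers. WT livers held 1.14, 1.81 and 1.82 FPKM and KO livers 1.59, 1.14 and 1.40 FPKM, so Cre lay above the 9 others. Pms1 rose 1.99-fold in the acute model (adjusted p = 0.019), and its difference between models was 0.73 ± 0.16 (adjusted p = 0.258). Myo6, an actin motor, was at 5.60 to 6.59 FPKM in GFP, 7.05 to 8.32 in Cre, 6.58 to 7.59 in WT and 4.94 to 5.78 in KO livers. Its groups did not overlap in either model, and its difference was 0.64 ± 0.14 (adjusted p = 0.258).

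Abcb11, the bile salt export pump of hepatocytes, was at 72.3, 78.3 and 78.6 FPKM in GFP livers and at 92.7, 82.3 and 82.5 FPKM in Cre livers. It was at 81.6, 73.4 and 78.6 FPKM in WT livers and at 67.5, 66.4 and 63.1 FPKM in KO livers. Cre lay above GFP and KO below WT with no overlap, and the difference was 0.41 ± 0.10 (adjusted p = 0.293). The same arrangement was found for Cyp4v3, a fatty acid hydroxylase (0.56 ± 0.13), Ldhd, a D-lactate dehydrogenase (0.58 ± 0.14), and Haus2, of the augmin complex of the spindle (0.51 ± 0.13). Klhl2, Akr1c14 and Kank1 had differences of 0.55, 0.88 and 0.69, and for these Cre lay above GFP while KO and WT overlapped. In all tested genes, 52 had Cre above GFP and KO below WT without overlap (0.487%), and 51 had the opposite arrangement (0.477%). Groups separated the same way in both models for 36 genes upward (0.337%) and 103 downward (0.964%).

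The other acute calls of large size described here had the same sign in both models. Cyp2b10, a P450 induced through the receptor CAR, was at 6.14, 12.6 and 11.8 FPKM in GFP livers and at 0.562, 1.30 and 0.532 FPKM in Cre livers. WT livers held 8.23, 2.66 and 10.3 FPKM and KO livers 4.10, 4.05 and 1.93 FPKM, with overlap. Cyp2b10 fell 12.8-fold in the acute model (adjusted p = 0.0060), was 2.10-fold lower in KO than in WT without passing, and the difference was -1.83 ± 0.59 (adjusted p = 0.356). Nlrp12, an innate immune receptor, fell by 1.48 in the acute model and was at -0.81 in the constitutive one. Nat8, an acetyltransferase, rose by 1.51 and was at 0.78, and Hes6, a transcriptional regulator, rose by 0.77 and was at 0.35. For these 3 genes the groups did not overlap in either model, and the differences of -0.67, 0.73 and 0.42 had intervals that included 0. Slc22a30 and Adh6-ps1 rose by 0.62 and 1.16, with constitutive effects of 0.11 and 0.13. Clstn3, the only gene called higher in KO than in WT, was at 2.38 to 4.26 FPKM against 1.01 to 1.69 FPKM, with overlapping GFP and Cre values and a difference of -0.72 ± 0.20 (adjusted p = 0.307).

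The list of FoxO1 targets, drawn from textbook knowledge but with earlier results of these data known, held 22 genes, of which 20 passed the filter on low values. The median effect was -0.08 in the acute and -0.18 in the constitutive model, with 14 and 15 of the 20 below 0, against medians of 0.00 and -0.01 over all genes. Their median difference was 0.07, with 11 above and 9 below 0. Leaving out 1 library moved that median between -0.02 (without KO refed 2) and 0.16 (without KO refed 3), and it was 0.02 without GFP refed 2, 0.03 without Cre refed 2, 0.00 without WT refed 1 and 0.02 without the deeper acute libraries (in refed livers GFP refed 3 and Cre refed 1, left out with their fasted counterparts, GFP fasted 3 and Cre fasted 1). Irs2, Cited2 and Cdkn1b had an unadjusted p under 0.05, all with the higher effect in the acute model, and none passed the adjusted threshold. Counts at this unadjusted p, here and in the lists below, stand beside 10.9% of all genes, 5.64% higher and 5.27% lower.

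Igfbp1, an insulin-repressed secreted binding protein and the classical FoxO1 target, was at 7.89, 38.4 and 5.93 FPKM in GFP livers and at 11.02, 2.78 and 11.1 FPKM in Cre livers. In WT livers it was at 43.7, 32.7 and 60.3 FPKM and in KO livers at 18.5, 17.4 and 15.5 FPKM. WT stood above KO without overlap, while GFP and Cre overlapped because 1 GFP library was high and the other 2 were low. The constitutive effect was -1.32 and the acute one -0.71, neither passed, and the interval of the difference ran from -1.05 to 2.26.

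G6pc, the last enzyme of glucose production, was at 73.7, 171 and 110.5 FPKM in GFP and 134, 62.4 and 148 FPKM in Cre livers. It was at 291, 111 and 227 FPKM in WT and 167, 152 and 146 FPKM in KO livers. Both pairs of groups overlapped, and the difference was 0.27 with an interval from -0.83 to 1.37. Irs2, an adaptor of the insulin receptor, was at 0.495 to 0.960 FPKM in GFP, 0.854 to 1.66 in Cre, 0.734 to 2.10 in WT and 0.732 to 0.926 in KO livers. Its difference was 0.63 ± 0.28 in refed livers against -0.91 ± 0.28 in fasted ones, and the change with refeeding was 1.53 ± 0.40 (limma, unadjusted p = 0.0010, adjusted p = 0.482). In fasted livers the acute controls held 3.43, 3.78 and 5.51 FPKM of Irs2 against 1.96, 1.81 and 1.64 FPKM in Cre livers.

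The promoters of these 3 target genes and of Fetub are shown for the forkhead-type letters they hold. The motifs GTAAACA and CAAAACA were searched on both strands, and the share holding either counts a window once. In 32851 promoter windows of RefSeq (GRCm38.p6, 250 bases before to 50 after each start), 3.65% held the first and 6.28% the second, and 9.63% held either. Of the 22 target genes, 17 had a promoter in the table and 6 of these held a match. A gene was counted if any of its windows held a match, so this count cannot be set against the share of windows. Below are the 250 bases before the start, 5′ to 3′ along the gene, with the match in capitals, which for Fetub is the window of the second of 2 listed starts.
Igfbp1 (chr11:7197537-7197786, + strand): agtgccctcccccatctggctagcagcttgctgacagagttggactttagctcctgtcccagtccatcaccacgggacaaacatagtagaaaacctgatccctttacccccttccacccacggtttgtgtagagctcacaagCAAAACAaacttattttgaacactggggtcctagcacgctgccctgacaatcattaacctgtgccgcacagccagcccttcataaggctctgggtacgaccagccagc
G6pc (chr11:101367466-101367715, + strand): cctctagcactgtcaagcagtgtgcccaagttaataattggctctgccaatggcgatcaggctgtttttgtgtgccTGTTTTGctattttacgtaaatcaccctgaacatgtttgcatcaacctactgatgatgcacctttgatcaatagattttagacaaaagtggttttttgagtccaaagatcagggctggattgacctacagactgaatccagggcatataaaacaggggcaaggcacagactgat
Irs2 (chr8:11008930-11009179, - strand): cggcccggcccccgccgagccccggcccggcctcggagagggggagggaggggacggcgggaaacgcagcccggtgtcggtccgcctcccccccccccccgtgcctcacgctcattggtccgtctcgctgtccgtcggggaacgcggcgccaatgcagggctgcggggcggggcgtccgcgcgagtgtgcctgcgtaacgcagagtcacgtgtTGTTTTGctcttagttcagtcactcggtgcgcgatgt
Fetub (chr16:22919972-22920221, + strand): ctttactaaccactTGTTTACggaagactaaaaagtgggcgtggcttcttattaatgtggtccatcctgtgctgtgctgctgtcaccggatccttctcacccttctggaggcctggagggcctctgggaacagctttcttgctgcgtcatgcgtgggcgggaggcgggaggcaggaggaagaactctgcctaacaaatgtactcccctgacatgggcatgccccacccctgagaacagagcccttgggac
The matches begin 108, 174, 37 and 236 bases before the start for Igfbp1, G6pc, Irs2 and Fetub. The first 3 hold CAAAACA, which reads TGTTTTG on the printed strand of G6pc and Irs2, and Fetub holds GTAAACA read as TGTTTAC. A match describes letters only and says nothing about binding.

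Gluconeogenesis genes were lower in Cre than in GFP livers in 13 of 13 and in KO than in WT livers in 11 of 13, with none called. The median effects were -0.21 and -0.12, and the difference was below 0 for 11 with a median of -0.19 and none at an unadjusted p under 0.05. The median was -0.07 without Cre refed 1, -0.09 without Cre refed 2 and -0.03 without the deeper acute libraries. Pck1, which makes phosphoenolpyruvate, was at 931, 902 and 775 FPKM in GFP, 801, 340.2 and 589 in Cre, 1054, 1114 and 1179 in WT, and 863, 730.2 and 1210.4 in KO livers. Deleted and control livers overlapped in both models, and the difference was -0.39 with an interval from -1.22 to 0.45. Ppargc1a, a coactivator of this programme, had effects of -0.68 and -0.30 and a difference of -0.38 ± 0.22. Of 14 insulin signalling genes, 11 were above 0 for the difference, with a median of 0.07 and Irs2 as the one at an unadjusted p under 0.05; with 1 library left out that median lay between 0.01 (without KO refed 2) and 0.16 (without KO refed 3).

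Of 16 genes of glycolysis and glycogen, 8 were above and 8 below 0, with a median difference of 0.01, which lay between -0.08 and 0.13 with 1 library left out. Pygl, the liver glycogen phosphorylase, was at 143, 137 and 147 FPKM in GFP and 157, 176 and 168 FPKM in Cre livers. It was at 170, 129 and 163 FPKM in WT and 147, 133 and 142 FPKM in KO livers. Cre lay above GFP while WT and KO overlapped, and the difference was 0.35 ± 0.12 (adjusted p = 0.369).

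Genes of fatty acid synthesis were higher in both deleted groups, in 12 of 15 acutely and 14 of 15 constitutively, with medians of 0.24 and 0.16 and none called. Their median difference was 0.07, Fads1, a fatty acid desaturase, was the 1 gene at an unadjusted p under 0.05 (-0.30 ± 0.13), and Srebf1, the insulin-driven regulator of this pathway, had a difference of 0.11 with an interval from -0.72 to 0.94. With 1 library left out, the median of the synthesis list ran from -0.18 (without WT refed 1) to 0.21 (without WT refed 2). Cholesterol synthesis genes were above 0 in 17 of 17 in the constitutive model and in 6 of 17 in the acute one, with medians of 0.20 and -0.10. The difference was below 0 for 16 of 17 with a median of -0.33, and none had an unadjusted p under 0.05. GFP refed 2 was the high library for the list, at 0.69 above the gene means, and without it the median difference was -0.15. It was -0.21 without Cre refed 1 and -0.20 without KO refed 1.

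Targets of PPAR alpha and genes of fatty acid oxidation were below 0 for the difference in 20 of 25, with a median of -0.10, which was -0.045 without WT refed 2 and -0.17 without KO refed 2. Vnn1, Acot1, Cyp4a10 and Cyp4a14 had an unadjusted p under 0.05, against 10.9% of all genes. Vnn1 and Cyp4a10 were called lower in the acute model, against 0.262% of all genes. Acot1, a cytosolic thioesterase, was at 18.3, 24.4 and 26.6 FPKM in GFP, 9.52, 15.3 and 15.01 in Cre, 10.1 to 15.9 in WT and 13.9 to 21.0 in KO livers. Cre lay below GFP, and the difference was -1.17 ± 0.30. Cyp4a10, a fatty acid hydroxylase with near-identical copies, fell 2.22-fold in the acute model, with a difference of -0.78 ± 0.34. The mitochondrial enzymes Cpt1a, Hadha and Hadhb of the same list had differences of 0.04, 0.06 and 0.00.

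Of 22 genes of lipoproteins and lipid export, 15 were below 0 with a median of -0.24, and 7 had an unadjusted p under 0.05. The 5 lower ones were Apoa1, Apoa2, Apoa4, Apoc3 and Apoe, and the 2 higher ones were Apob and Abca1. Apoc3, an inhibitor of lipoprotein lipase, was at 2839, 3195 and 3218 FPKM in GFP, 2561, 2470 and 2514 in Cre, 3452, 3224 and 3508 in WT, and 3656, 4484 and 3299 in KO livers. Cre lay below GFP, and the difference was -0.45 ± 0.16 (adjusted p = 0.377). Abca1, the cholesterol exporter, was at 10.7 to 12.5 FPKM in GFP and 14.4 to 17.4 in Cre livers, and its difference was 0.57 ± 0.22. Of these 2, Apoc3 has a transcript of 526 nt and Abca1 one of 10262 nt, a property that moved with the differences over all genes.

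Differences between the models increased with transcript length. Genes were split into 5 equal bins by the median length of their annotated transcripts, which 98.8% of the tested genes had. The median difference was -0.14 in the bin of shortest transcripts and 0.11 in the longest, and Spearman's rho with length was 0.34 across genes. The constitutive effect had a rho of -0.39 and the acute effect one of 0.10, while the fasted difference had one of -0.08. Each library's log2 deviation from the gene means had a slope on log2 length, which was lowest in KO refed 2 (-0.140), KO refed 1 (-0.085) and WT refed 3 (-0.062) and between 0.002 and 0.041 in the 6 acute refed libraries. With each library's slope removed, 949 genes had an unadjusted p under 0.05 and none was called.

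**Figure D3:**
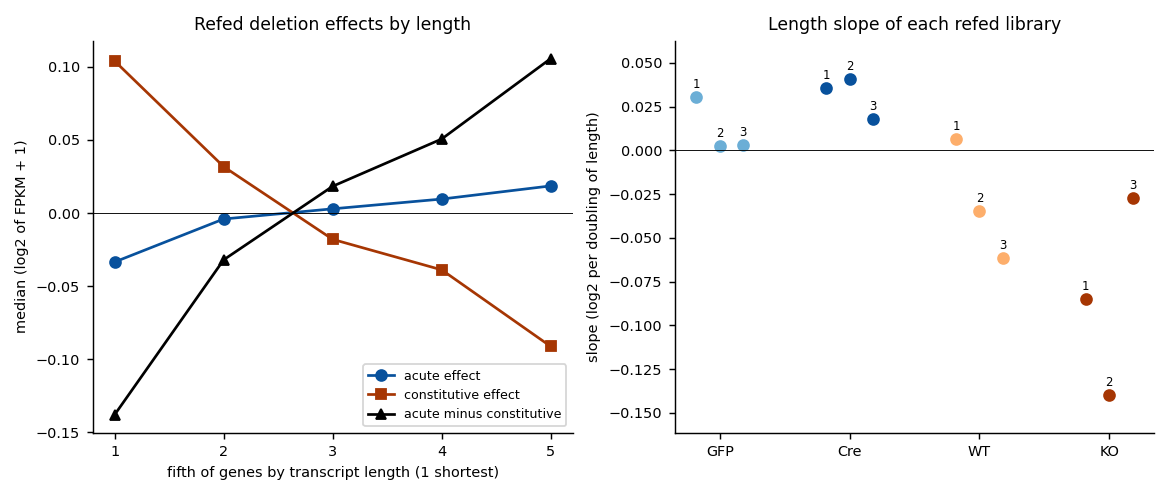
The left panel gives the median acute effect, constitutive effect and their difference (log2 of FPKM + 1) in 5 bins of genes from the shortest to the longest transcripts, and the right panel the length slope of each refed library, numbered by replicate. The median difference runs from -0.14 to 0.11, and KO refed 2 has the lowest slope at -0.140.

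Nuclear-encoded respiratory chain subunits, which are short, were below 0 for the difference in 62 of 71, with a median of -0.26 and 34 at an unadjusted p under 0.05. They were above 0 in 59 constitutively (median 0.13) and below 0 in 67 acutely (median -0.11). Uqcr10, of complex III, was at 372, 379 and 408 FPKM in GFP, 314, 347 and 324 in Cre, 395, 369 and 415 in WT, and 478, 524 and 407 in KO livers, and its difference was -0.48 ± 0.13. Cytosolic ribosomal proteins were below 0 in 74 of 76, with a median of -0.21 and 16 at an unadjusted p under 0.05. The median lengths of the lists were 732 and 772.5 nt, and with the length slopes removed the medians were -0.14 and -0.09. Without KO refed 2 the median of the ribosomal proteins was -0.13. The share of length in these values beyond that removal was not tested, and both lists were added after values were seen.

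The widest differences were in genes with sex-biased expression in liver, which follow the pattern of growth hormone secretion. All 18 male-biased genes had the higher effect in the acute model, with a median of 1.43 and 12 at an unadjusted p under 0.05. Their median effect was 1.18 in the acute and -0.22 in the constitutive model, and none was called. Of the 9 female-biased genes kept of 15, 7 were below 0 and at an unadjusted p under 0.05, with a median over the 9 of -2.79, an acute median of -1.40 and a constitutive one of 0.66. The reads of Mup, Cyp2b, Cyp2d, Cyp4a and Gstp members can be split between near-identical copies.

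Cyp2d9, a male-biased P450, was at 293, 136 and 330 FPKM in GFP, 602, 433 and 545 in Cre, 725, 834 and 747 in WT, and 509, 417 and 566 in KO livers. Cre lay above GFP and KO below WT, and GFP was below all other groups. The direct difference between GFP and WT livers was -1.70 (adjusted p = 0.021), that between Cre and KO livers was 0.08 (adjusted p = 0.89), and the difference between models was 1.78 ± 0.46 (adjusted p = 0.293). Cyp7b1, which hydroxylates oxysterols on the way to bile acids, was at 15.3 to 21.9 FPKM in GFP, 43.8 to 159 in Cre, 16.4 to 41.4 in WT and 11.8 to 45.7 in KO livers. Its difference was 2.50 ± 0.84 (adjusted p = 0.364).

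Cyp17a1, a steroid hydroxylase in the female-biased list, was at 4.15, 31.8 and 25.4 FPKM in GFP and 6.42, 4.82 and 4.16 FPKM in Cre livers. It was at 7.004, 4.84 and 5.12 FPKM in WT and 14.4, 21.6 and 12.4 FPKM in KO livers. KO lay above WT, and GFP refed 1 lay with the Cre libraries while the other GFP libraries were high. The difference was -2.79 ± 0.71 (adjusted p = 0.293), and it was -3.62 with an adjusted p of 0.00646 without GFP refed 1.

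GFP refed 1 stood apart from GFP refed 2 and 3 over both lists. Its median deviation from the gene means was -0.04 for male-biased and -0.17 for female-biased genes, against -1.29 and -0.99, and 1.68 and 1.25, in GFP refed 2 and 3. Without it, 14 genes were called for the difference between models, among them 6720456H20Rik, 9130409I23Rik, Acnat2, Aox1, Cyp17a1, Cyp4a12b, Cyp4v3, Fam195a, Fetub, Gm13152, Mbnl2, Slc22a26 and Vnn1. The median difference was then 1.83 for male-biased and -3.31 for female-biased genes, and it was -1.63 for female-biased genes without the deeper acute libraries. In fasted livers the medians of the 2 lists were 0.69 and -0.39. Growth hormone pathway genes had a median difference of 0.07, which lay between -0.01 and 0.13 with 1 library left out, and none of 14 had an unadjusted p under 0.05. Ghr, the receptor, was at 0.18 and Igf1, its main hepatic product, at 0.21. Socs2 and Cish, feedback inhibitors of the pathway, were the members farthest from 0, at -0.90 ± 0.49 and -0.89 ± 0.67.

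**Figure D4:**
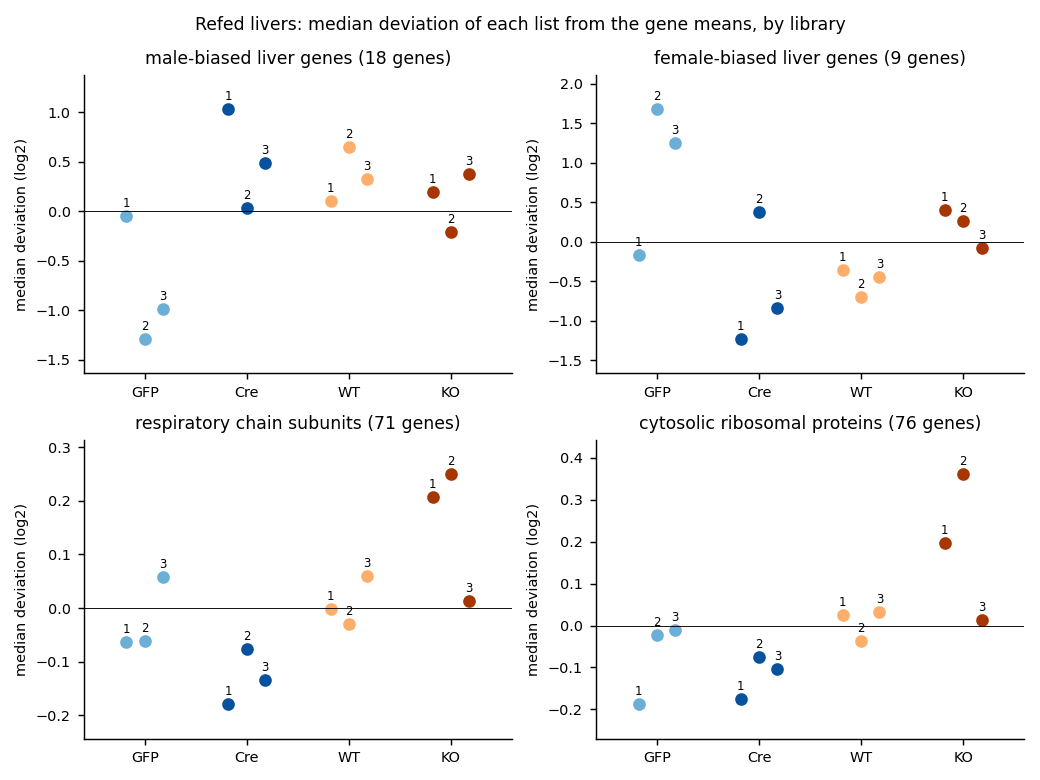
Each point is the median over a list's genes of the deviation from the gene's mean in the 12 refed libraries (log2 of FPKM + 1), by group and numbered by replicate. GFP refed 2 and 3 lie lowest for male-biased and highest for female-biased genes, while KO refed 1 and 2 lie highest for respiratory chain subunits and ribosomal proteins.

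Bile acid genes were above 0 for the difference in 13 of 14, with a median of 0.23 (0.36 without Cre refed 1 or KO refed 1). Cyp7b1 and Abcb11 had an unadjusted p under 0.05, against 10.9% of all genes. In the constitutive model 13 of 14 were below 0 (median -0.28), and in the acute model 8 were (median -0.05). Cyp7a1, which starts the main route from cholesterol to bile acids, had a difference of 0.19 with an interval from -0.67 to 1.05. Cyp8b1, the sterol hydroxylase that makes cholic acid, was at 153, 233 and 182 FPKM in WT and 108, 91.5 and 61.8 FPKM in KO livers. It was at 156, 79.2 and 67.1 FPKM in GFP and 86.1, 56.4 and 71.6 FPKM in Cre livers, and its difference was 0.72 with an interval from -0.13 to 1.57.

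Targets of the drug receptors CAR and PXR were below 0 in 19 of 22 acutely and 17 of 22 constitutively, with medians of -0.48 and -0.34. The 3 acute calls were Cyp2b10, Cyp2c37 and Cyp2c54, all lower, against 0.262% of all genes called lower. Cyp2c37 and Cyp2c54 can share reads. The median difference of the list was -0.01, and it lay between -0.28 (without GFP refed 1) and 0.03 (without Cre refed 1). Phase II conjugation genes had a median difference of 0.29, with 5 higher and 2 lower at an unadjusted p under 0.05, and the median was 0.03 without GFP refed 2, 0.14 without Cre refed 2 and 0.12 without WT refed 1. Ugt2b5, a glucuronosyltransferase with near-identical copies, was at 288 to 381 FPKM in GFP and 437 to 509 in Cre livers, with overlapping WT and KO values and a difference of 0.71 ± 0.18 (adjusted p = 0.293).

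Glucocorticoid-responsive genes were below 0 in 12 of 12 acutely and in 6 of 12 constitutively, and the difference was below 0 in 11 with a median of -0.55. In fasted livers the median difference of this list was -0.77. None of the 12 had an unadjusted p under 0.05 (limma) for the change of the difference with refeeding. Fkbp5, a chaperone of the glucocorticoid receptor, was at 24.2, 41.2 and 22.0 FPKM in GFP and 12.1, 14.4 and 13.4 in Cre livers, against 10.7 to 29.7 in WT and 14.8 to 33.8 in KO livers. Its difference was -1.41 ± 0.55 (adjusted p = 0.416). GFP refed 2 was high for this list, at 0.65 above the gene means, and also for the neutrophil markers, whose sum was 27.8 FPKM there and 1.90 to 13.2 in the other refed libraries; the part of these cells in the list's value was not tested. Heat shock chaperones were below 0 in 10 of 10 acutely, with Hspa1a and Hspa1b called (0.262% of all genes were called lower), and in 9 of 10 constitutively. Hspa1b, whose reads can be split with Hspa1a, was at 13.6, 7.79 and 5.31 FPKM in GFP, 2.46 to 3.68 in Cre, 2.92 to 6.22 in WT and 3.02 to 3.46 in KO livers, and its difference was -0.82 ± 0.32.

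Urea cycle and amino acid genes had a median difference of 0.01, with 4 of 17 at an unadjusted p under 0.05, against 10.9% of all genes. Otc, the urea cycle enzyme on the X chromosome, was at 182, 169 and 185 FPKM in GFP and 184, 179.7 and 176 FPKM in Cre livers. It was at 185, 197 and 182 FPKM in WT and 149.8, 129 and 160.0 FPKM in KO livers. KO lay below all other groups, and the difference was 0.37 ± 0.10 (adjusted p = 0.293). Tdo2, which degrades tryptophan, and Cps1, which starts the urea cycle, were also among the 4, with differences of 0.52 and 0.47. Lists of ER chaperones, interferon-stimulated genes, immediate early genes, ribosome biogenesis and the circadian clock had median differences between -0.05 and 0.04, each of which changed sign in at least 1 case of a library left out, and 1 gene each of the first and the last, Dnajb9 and Clock, had an unadjusted p under 0.05.

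**Figure D5:**
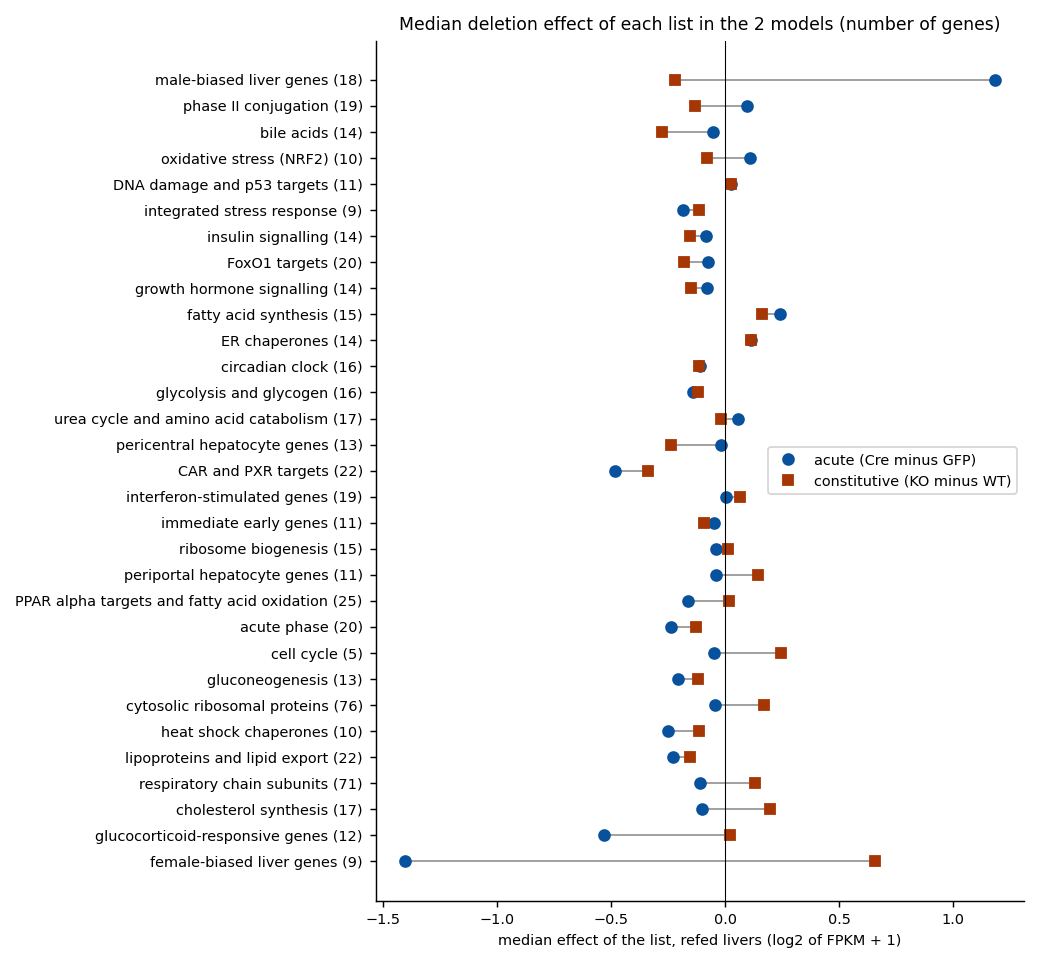
Circles give the median acute effect and squares the median constitutive effect of each list (log2 of FPKM + 1) in refed livers, joined by a line and ordered by the median difference, with the number of tested genes in brackets. Male-biased genes lie at 1.18 and -0.22 and female-biased genes at -1.40 and 0.66.

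The sums of erythroid and of endothelial markers separated the acute from the constitutive libraries, but not every marker did. In bulk tissue, fewer cells of a type and less RNA per cell cannot be told apart. Summed erythroid markers were 32.6 to 136 FPKM in acute and 259.8 to 659.9 FPKM in constitutive refed libraries, without overlap, and summed endothelial markers were 69.3 to 112 and 49.3 to 63.6 FPKM. Singly, Pecam1, Oit3, Kdr, Gpr182 and Fcgr2b did not overlap, while Stab1, Stab2, Lyve1, Clec4g and Dnase1l3 did. The erythroid Hba-a1 and Beta-s did not overlap. Alas2 was at 72.0 FPKM in Cre refed 1, 3.91 to 6.72 in the other acute libraries and 8.94 to 10.5 in the constitutive ones. Macrophage markers were lowest in Cre refed 3 (47.2 FPKM) and highest in Cre refed 1 (289 FPKM). Of the adipocyte markers, Adipoq and Plin1 were at most 0.0533 and 0.0292 FPKM, and Lep and Retn were listed at 0. Fabp4 was at 7.66 to 16.1 FPKM, and Cfd was at 5.40 FPKM in GFP refed 1, 1.99 in KO refed 1 and 1.69 in KO refed 3 and at most 0.414 in the others (difference -1.81 ± 0.66, unadjusted p = 0.012, adjusted p = 0.378). The pancreatic Prss1, Cpa1 and Pnlip were listed at 0, while Cela1 was at 10.3 to 21.7 FPKM and Cela2a at 0.280 to 1.40 FPKM. The medians of the marker lists for the difference were -0.29 for hepatocytes, -0.02 for macrophages, 0.00 for stellate cells, -0.16 for cholangiocytes (3 genes kept), -0.63 for erythroid cells (4 genes), -1.18 for neutrophils (2 genes) and -1.05 for adipocytes (2 genes). With 1 library left out, the macrophage median ran from -0.46 (without Cre refed 1) to 0.60 (without Cre refed 3) and the hepatocyte median from -0.34 to -0.09 (without Cre refed 2), the stellate cell median from -0.10 to 0.12, the cholangiocyte median from -0.30 to -0.04 and the erythroid median from -0.88 to -0.23. The part of these cells in the differences between models was not tested.

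Comparing the deleted groups directly, Cre and KO livers differed in 2214 genes (20.7%), 1697 higher (15.9%) and 517 lower (4.84%) in Cre livers, and the controls GFP and WT in 101 genes (0.946%), 83 higher (0.777%) and 18 lower (0.169%). With median-of-ratios scaling the splits were 782 higher and 1028 lower, and 33 higher and 68 lower, and the medians of all genes before that scaling were 0.09 and 0.08. Without KO refed 2 the count between deleted livers was 604, without Cre refed 2 it was 1148, and without WT refed 2 or WT refed 3 the count between controls was 1 or 6. The latter count was 250 without WT refed 1 and 62 without GFP refed 2. Model, cohort and virus cannot be told apart in these direct contrasts.

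The same difference between the models was computed in fasted livers. No gene was called for the fasted difference (limma, 839 at an unadjusted p under 0.05, 7.85%), and none for the change of the difference with refeeding (836, or 7.83%), where leaving out KO refed 2 gave 2 calls and leaving out GFP refed 1, KO refed 1 or KO refed 3 gave 1. Of the 1165 genes at an unadjusted p under 0.05 in refed livers, 679 had the same sign in fasted livers, 96 were also under 0.05 there, and 365 were under 0.05 for the change, which shares the refed libraries. Akr1c14, an aldo-keto reductase, had differences of 0.88 refed and -0.29 fasted, and Fetub -0.77 and 0.25.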

How the data were processed

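Liver RNA was sequenced after a stranded mRNA library preparation, per the labels' protocols. The authors deposited FPKM values per gene locus for each library; HISAT2, Cufflinks, Cuffdiff and mm10 are named per the submitters' processing notes, and for strand handling nothing is given in the sources used here. There were 23746 loci in each library, of which 14 with a failed estimate were left out. Each locus of a repeated symbol was tested on its own, so the genes counted here are loci. For list members with a repeated symbol, the locus with the highest mean was used. A value of 0 at a locus that was kept was not marked as failed, and whether it means that the transcript was absent was not tested. Genes with at least 1 FPKM in at least 3 of the 24 libraries were kept, which left 10682. Contrasts on log2(FPKM + 1) were fitted over all 8 groups with limma 3.58.1 in R 4.3.3, with Benjamini-Hochberg adjustment over all tested genes and a threshold of 0.05, so every adjusted p is from limma. Scripts also used Python 3.11.15, pandas 2.3.3, numpy 2.4.6 and matplotlib 3.10.9, and the fits were tested on simulated data. Total depth is unknown, so no counting intervals are given. Named genes were Foxo1, the 10 genes of smallest p for the difference in each direction, up to 5 calls of each direction in each model, 10 metabolic genes, and up to 4 members of each list with the smallest p; B930025P03Rik, Cyp2c54 and further list members were picked with their values in view. The members and lists were chosen with earlier results of these data known, and respiratory chain subunits and ribosomal proteins were chosen by symbol pattern after values were seen. Transcript lengths came from the GENCODE M21 basic annotation. Alternatives covered the pseudocount, the filter, the scaling, the libraries fitted, array weights, a replicate block and each library left out; removal of the length slopes was chosen after seeing the data. Some named genes are not reported here.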

Additional observations from a re-analysis of the deposited data

Results flagged for a closer look

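For 14 named genes the groups did not overlap in either model and moved in opposite directions. Limma tested the difference of each, and none passed the adjusted threshold. Among all 10682 tested genes, 52 (0.487%) had Cre above GFP and KO below WT without overlap, and 51 (0.477%) the reverse. Many named genes were picked by a small p for this same difference, which favours such genes, so the 14 are a description only. The acute effect was the higher one for Myo6 (0.64), Cyp4v3 (0.56), Ldhd (0.58), Haus2 (0.51), Abcb11 (0.41), Cyp2d9 (1.78) and Ugt2b36 (0.32). It was the lower one for Plin4 (-1.74), Serf2 (-0.51), Tmem53 (-0.72), Klf2 (-0.75), Cox8a (-0.45), Uqcrq (-0.46) and Atp5k (-0.37). All values are log2 differences between the models.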

How the results depend on the processing

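The count for the difference between models was 0 and became 1 with the replicate block (Vnn1, adjusted p = 0.0320), and 0 to 14 with a library left out (14 without GFP refed 1). The acute count of 37 was 10 with the 12 refed libraries alone, 24 with array weights, 18 without the deeper acute libraries, 11 at a threshold of 0.01, and 12 to 120 with a library left out (120 without GFP refed 1, 12 without Cre refed 3). The constitutive count of 4 was 1, 16, 9 and 1 with the 12 libraries alone, array weights, length slopes removed and a threshold of 0.01, and 1 to 7 with a library left out. Between deleted livers, 2214 became 1336 with the 12 libraries alone, 905 with the replicate block, 1316 with length slopes removed, 725 at 0.01, and 604 to 2301 with a library left out. Between controls, 101 became 57 without the filter, 12 with the 12 libraries alone and 2 with the replicate block. The count between controls was 158 without the deeper acute libraries, 2 at 0.01, and 1 to 250 with a library left out. The replicate block was set within each model, so under it the direct contrasts between models are not contrasts of group means. The counts of 905 and 2 with the block therefore cannot be set against 2214 and 101. The fasted count of 0 was 4 with array weights and 4 without the deeper acute libraries, and the change with refeeding gave 0 to 2 with a library left out. Igfbp1 turned to -0.15 without the deeper acute libraries. With a library left out, signs turned for the differences of Cyp2c37 (-0.43 to 0.29), Igfbp2 (-0.083 to 0.39), G6pc (-0.026 to 0.67), Srebf1 (-0.22 to 0.40) and Cyp7a1 (-0.066 to 0.55). The cause was not tested. Same-numbered libraries did not pair: 10 of 24 pairs had a correlation over 0.1 (range -0.335 to 0.365), and 8 libraries correlated best with their own number.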
